A study of Homo sapiens with 24 samples.

Results

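The long noncoding RNA SLNCR without its triplex-forming region 5 (ΔTFR5) was compared here with SLNCR without its triplex-forming region 4 (ΔTFR4), both expressed from a plasmid in A375 cells, an established human melanoma line. The comparison was chosen by construct: it holds the 3 ΔTFR5 and the 3 ΔTFR4 libraries of the second batch of samples, 6 of 24 libraries in the series. The series asks which genes depend on the parts of SLNCR predicted to pair with DNA, and its other libraries carry full-length SLNCR (FL), other deletions or the vector without insert. Every group received a pcDNA3.1 plasmid by lipofection, with a CAG promoter and a puromycin resistance gene. Selection in 2 µg/mL puromycin lasted 48 h, after which RNA was depleted of ribosomal RNA and sequenced as read pairs; each group is 3 biological replicates by the submitters' account. ΔTFR5 and ΔTFR4 cells therefore differ in the construct, and share the line, the vector, the drug and an overexpressed SLNCR. A contrast of both deletions with each other does not say which of them departs from FL.

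A long noncoding RNA can act on chromatin by carrying proteins to genes or by lying in the major groove of double-stranded DNA as an added strand. Such RNA-DNA triplexes form over runs of purines, the bases A and G, on one of the DNA strands. SLNCR is known in melanoma for binding the transcription factor EGR1, for raising the matrix protease MMP9 and for holding down the cell cycle inhibitor CDKN1A.

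The deposited values were estimated counts per gene. Column totals were 24810226, 27699334 and 26263426 in ΔTFR5 replicates 1, 2 and 3, against 25935896, 25782653 and 26395119 in ΔTFR4 replicates 1, 2 and 3; values below follow that order of replicates. Levels are in CPM, counts divided by the scaled library size, and differences are log2 fold changes of ΔTFR5 over ΔTFR4 with their standard errors. A gene is said to have risen or fallen where edgeR's quasi-likelihood test gave a Benjamini-Hochberg adjusted p under 0.05 over the 18763 genes tested. The melanocyte factor SOX10 lay at 51.0 to 57.0 CPM in ΔTFR5 libraries and 52.0 to 61.7 in ΔTFR4 libraries, while the pigment genes PMEL and MLANA lay near 1 CPM and TYR was at 0 in 4 of the 6. ΔTFR5 replicate 3 stood apart: it was the highest of the 6 libraries in all 30 genes of G2 and mitosis and the lowest in 24 of 30 immediate-early genes. Values without it are given beside many of the gene lists below, but not beside all. The labels call the cells epithelial: EPCAM had 2 counts over the ΔTFR5 libraries and 7 over the ΔTFR4 libraries, and CDH1 lay under 1 CPM throughout.

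SLNCR itself was read first, as the check of the constructs. RefSeq gives SLNCR as another name of LINC00673 (chr17:72403322-72592804, GRCh38.p14), which lies inside the span of the GENCODE 29 gene LINC00511 (chr17:72290091-72640472, minus strand). The counts hold a row for LINC00511 and none for LINC00673, so plasmid RNA, the cells' own SLNCR and LINC00511 share that row. Its level was 320.8, 375.7 and 191.6 CPM in ΔTFR5 libraries, against 515.1, 497.9 and 443.9 CPM in ΔTFR4 libraries. All 3 ΔTFR5 libraries lay below all 3 ΔTFR4 libraries, and ΔTFR5 replicate 3 was the lowest of the 6. The difference of -0.71 ± 0.26 did not pass (edgeR adjusted p = 0.411). The groups may thus differ in the amount of SLNCR as well as in the region it lacks, and the part of that amount in the results below was not tested.

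Among the genes tied to SLNCR that are described here, none passed. EGR1, an immediate-early transcription factor, lay at 229.9, 434.3 and 23.4 CPM in ΔTFR5 libraries, against 643.3, 662.5 and 836.4 CPM in ΔTFR4 libraries (-1.64 ± 0.96, adjusted p = 0.615). Its groups did not overlap, yet ΔTFR5 replicate 2 stood far above ΔTFR5 replicate 3. CDKN1A, which blocks cyclin-dependent kinases, had 208.7, 269.2 and 149.1 CPM in ΔTFR5 libraries, against 399.3, 431.5 and 318.1 CPM in ΔTFR4 libraries, again without overlap (-0.87 ± 0.20, adjusted p = 0.111). CDKN1A passed under 6 of the alternatives run, with adjusted p between 0.00196 and 0.0318, among them DESeq2 (0.00683) and the edgeR fit without the FL libraries (0.0312), and did not pass with the 2 deletion groups alone (0.0782). POU4F1, a neural transcription factor also known as Brn3a, lay at 2.90, 2.71 and 2.45 CPM in ΔTFR5 libraries and 4.06, 3.55 and 2.97 CPM in ΔTFR4 libraries (-0.39 ± 0.25, adjusted p = 0.643). MMP9 had 1 count over the ΔTFR5 libraries and 8 over the ΔTFR4 libraries, too few to test.

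Across all genes, 85 passed, 0.453% of those tested. Of them 67 were higher in ΔTFR5 (0.357%) and 18 lower (0.0959%). The groups did not overlap for any of the 85, beside 13.1% of all tested genes that lay wholly higher and 14.2% wholly lower in ΔTFR5. At an unadjusted p under 0.05, 970 genes were higher (5.17%) and 850 lower (4.53%). A change of at least 1 on the log2 scale was seen for 72 of the 85, and the genes lay on 21 chromosomes, at most 9 on any of them. Of the 67 that rose, 34 had a mean under 0.5 CPM in ΔTFR4 libraries, so that many were close to silent there. When each library was left out in turn, 34 of the 85 passed in all 6 fits, and the count lay between 39 and 62. It was 39 without ΔTFR4 replicate 1 or 2, 43 without ΔTFR5 replicate 3 and 46 without ΔTFR4 replicate 3.

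**Figure D1:**
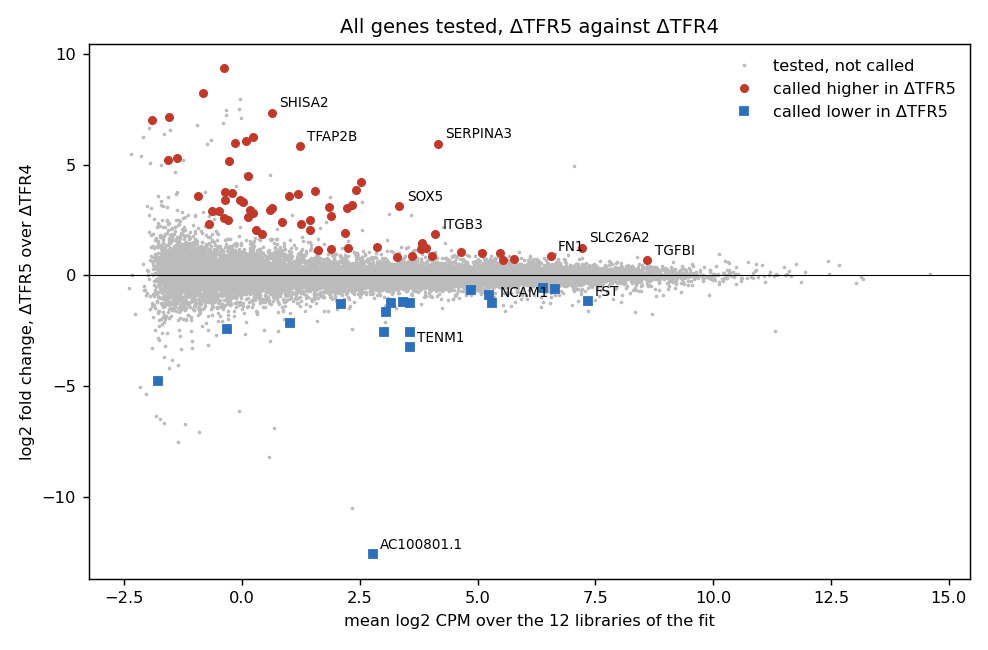
Each point is 1 of the 18763 genes tested, with its mean log2 CPM over the 12 libraries of the fit on the x axis and its log2 fold change of ΔTFR5 over ΔTFR4 on the y axis; red circles are the 67 genes called higher, blue squares the 18 called lower and grey dots the rest. Many of the red circles lie at low mean levels, and AC100801.1 is the lowest point.

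The number of calls depended on the libraries in the fit and on the method. The fit above shares one estimate of the spread between replicates over all 12 libraries of the batch. Between replicates a typical gene varied by a coefficient of 0.212 beyond counting error in that fit, and by 0.127 in the 2 deletion groups alone. With those 6 libraries alone, which also leaves fewer genes past the filter on low counts, 558 of 17482 genes tested were called higher in ΔTFR5 (3.19%) and 548 lower (3.13%), and 83 of the 85 were among them. Without the FL libraries 843 were called higher (4.65%) and 813 lower (4.49%), with 84 of the 85 among them. With the 2 deletion groups alone and without ΔTFR5 replicate 3, 774 of 18020 were called higher (4.3%) and 767 lower (4.26%). These shares stand beside the counts of list members given below for the same fits. On all 12 libraries, DESeq2 called 218 genes and limma voom with quality weights 3394. The 85 are reported as the changes.

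The 12 largest rises named here are among called genes whose mean log2 CPM reached 1 over all 12 libraries of the fit, FL and empty vector included. Called genes below that level included larger fitted differences: DMRTB1, SHISA2 and COL19A1 had 231, 220 and 177 counts over the ΔTFR5 libraries, and at most 0.0386 CPM in any ΔTFR4 library. DMRTB1 spread over 3.14, 4.21 and 1.28 CPM in ΔTFR5 libraries, passed in 1 of the 6 leave-one-out fits and was not called by DESeq2 (adjusted p = 0.48). SHISA2 and COL19A1 passed in all 6. The order of the genes below is by role, in a grouping made after the values were seen, with no test of any role. SERPINA3, or antichymotrypsin, a secreted inhibitor of serine proteases (ENSG00000196136, chr14:94612377-94624055, plus strand), had 30.1, 35.0 and 38.1 CPM in ΔTFR5 libraries, against 0.579, 0.567 and 0.521 CPM in ΔTFR4 libraries. All ΔTFR5 libraries were high and alike, and the rise was 61.5-fold (5.94 ± 0.29, adjusted p = 5.32e-07). It was the largest rise at that level. A2M, alpha-2-macroglobulin, which traps proteases of several classes, had 8.19, 7.27 and 12.6 CPM in ΔTFR5 libraries, against 0.502, 0.604 and 0.372 CPM in ΔTFR4 libraries (4.24 ± 0.31, adjusted p = 1.67e-05). SERPINF1, a serpin that does not inhibit proteases and restrains blood vessel growth, had 9.15, 8.84 and 7.64 CPM in ΔTFR5 libraries, against 1.16, 0.453 and 1.41 CPM in ΔTFR4 libraries (3.08 ± 0.32, adjusted p = 0.000226). In none of these did the groups come near each other. A2M overlaps the antisense gene A2M-AS1, and AL049839.2 (chr14:94592058-94624646) spans SERPINA3 on the same strand, so their reads may be shared. AL049839.2 is itself among the 67 genes called higher, so that count may hold this locus more than once. It had 45 counts over the ΔTFR5 libraries and 0 over the ΔTFR4 libraries (adjusted p = 0.0202), and passed in none of the 6 leave-one-out fits.

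The list of matrix proteases and their inhibitors held both SERPINA3 and A2M. Of its 30 members 25 were tested, 2 rose, none fell and 23 did not pass. Of all genes tested 0.357% rose and 0.0959% fell. The median difference of the list was 0.21, beside -0.003 over all genes. Without ΔTFR5 replicate 3, the highest of the 6 libraries in 14 of the 25 members (56.0%, beside 24.8% of all genes), the median was 0.10. With the 2 deletion groups alone 3 members passed higher and none lower, beside 3.19% and 3.13% of all genes. When that library was also left out, 5 passed higher and 1 lower, beside 4.3% and 4.26%. The tissue inhibitor TIMP3 had 96.3, 89.5 and 127.9 CPM in ΔTFR5 libraries, against 63.3, 57.1 and 63.3 CPM in ΔTFR4 libraries (0.77 ± 0.20, adjusted p = 0.196, and 0.00409 with the 2 deletion groups alone). The stromelysin MMP3 lay at 10.2, 8.02 and 25.4 CPM in ΔTFR5 libraries and 6.37, 3.89 and 5.65 CPM in ΔTFR4 libraries, with ΔTFR5 replicate 3 far above the rest (1.46 ± 0.51, adjusted p = 0.386). MMP2, a gelatinase, lay at 330.4 to 380.3 CPM in ΔTFR5 libraries and 282.9 to 329.7 CPM in ΔTFR4 libraries and did not pass (0.21 ± 0.12, adjusted p = 0.590).

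Several transcription factors rose. TFAP2B, an AP-2 family factor, had 4.77, 3.46 and 3.31 CPM in ΔTFR5 libraries, against 0.0773, 0.0755 and 0.0372 CPM in ΔTFR4 libraries (5.83 ± 0.50, adjusted p = 5.05e-05). SOX5, a SOX factor without an activation domain of its own, had 16.9, 17.3 and 24.3 CPM in ΔTFR5 libraries, against 2.20, 2.57 and 1.97 CPM in ΔTFR4 libraries (3.11 ± 0.21, adjusted p = 9.8e-06). Both were high in every ΔTFR5 library. Other such genes were picked out after their values were seen: PRRX1, a mesenchymal homeobox factor, had 26.2, 22.2 and 26.9 CPM in ΔTFR5 libraries, against 8.65, 10.3 and 8.03 CPM in ΔTFR4 libraries (1.48 ± 0.16, adjusted p = 0.000294). RXRG, a retinoid X receptor, had 105 counts over the ΔTFR5 libraries and 0 over the ΔTFR4 libraries, at least 34.8-fold higher against a floor of 3 counts over the group (adjusted p = 0.00865). SOX11, a SOX factor of the developing nervous system, had 42.7, 48.0 and 37.2 CPM in ΔTFR5 libraries, against 18.4, 21.2 and 21.8 CPM in ΔTFR4 libraries (1.06 ± 0.16, adjusted p = 0.00816). The call of SOX11 was lost without ΔTFR5 replicate 2 (0.0509), ΔTFR4 replicate 1 (0.066) or ΔTFR4 replicate 2 (0.0586).

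Several receptors and surface proteins rose as well. EPHA3, a receptor tyrosine kinase for ephrins, had 8.43, 8.195 and 10.8 CPM in ΔTFR5 libraries, against 0.966, 0.944 and 1.38 CPM in ΔTFR4 libraries (3.06 ± 0.28, adjusted p = 9.07e-05). TNFRSF19, a receptor of the tumour necrosis factor family, had 7.95, 5.88 and 6.78 CPM in ΔTFR5 libraries, against 0.502, 0.604 and 0.372 CPM in ΔTFR4 libraries (3.79 ± 0.28, adjusted p = 1.67e-05). Groups stood well apart for both. ERBB3, the neuregulin receptor of the EGF receptor family, had 24.7, 24.2 and 26.8 CPM in ΔTFR5 libraries, against 10.1, 10.1 and 11.6 CPM in ΔTFR4 libraries (1.25 ± 0.13, adjusted p = 0.000294). ITGB3, the integrin β3 subunit, had 20.2, 18.1 and 25.6 CPM in ΔTFR5 libraries, against 5.64, 5.10 and 6.77 CPM in ΔTFR4 libraries (1.87 ± 0.17, adjusted p = 7.55e-05). ERBB3 and ITGB3 were picked out after their values were seen, and passed with any of the 6 libraries left out. ERBB3 was the single called gene among the 11 tested EGF receptor ligands and receptors, beside 0.357% of all genes called higher. The list median was -0.34, or -0.44 without ΔTFR5 replicate 3. EGFR lay at 256.9, 245.1 and 314.7 CPM in ΔTFR5 libraries and 282.3, 285.7 and 262.7 CPM in ΔTFR4 libraries (-0.02 ± 0.21, adjusted p = 0.986), and the ligand gene AREG lay at 3.90, 5.35 and 5.08 CPM in ΔTFR5 libraries and 8.31, 7.71 and 9.44 CPM in ΔTFR4 libraries (-0.83 ± 0.27, adjusted p = 0.338).

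The rest of the 12 largest rises had varied roles. GAS7, a cytoskeletal protein of growth-arrested cells and neurons, had 8.79, 8.16 and 12.4 CPM in ΔTFR5 libraries, against 1.00, 0.491 and 0.521 CPM in ΔTFR4 libraries (3.86 ± 0.32, adjusted p = 3.92e-05). FXYD3, a regulator of the sodium pump, had 3.02, 2.74 and 4.07 CPM in ΔTFR5 libraries, against 0.270, 0.189 and 0.297 CPM in ΔTFR4 libraries (3.68 ± 0.28, adjusted p = 1.93e-05). MUC5B, a gel-forming mucin, had 3.42, 3.28 and 3.50 CPM in ΔTFR5 libraries, against 0.193, 0.302 and 0.335 CPM in ΔTFR4 libraries (3.60 ± 0.32, adjusted p = 6.9e-05). All 3 genes stood at a low level in ΔTFR4 libraries and well above it in every ΔTFR5 library. SYTL5, a synaptotagmin-like protein of vesicle transport, had 8.79, 10.2 and 13.0 CPM in ΔTFR5 libraries, against 0.888, 1.36 and 1.30 CPM in ΔTFR4 libraries (3.16 ± 0.26, adjusted p = 3.92e-05). HMCN1, an extracellular protein of basement membranes, had 8.35, 7.98 and 8.17 CPM in ΔTFR5 libraries, against 1.12, 1.47 and 1.19 CPM in ΔTFR4 libraries (2.69 ± 0.25, adjusted p = 9.07e-05). All 12 of the largest rises passed in each of the 6 leave-one-out fits.

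A pair of S100 genes rose, chosen after their values were seen, while the list of melanocyte differentiation genes gave no call. S100A1, a calcium-binding protein, had 4.93, 5.38 and 4.67 CPM in ΔTFR5 libraries, against 0.811, 0.718 and 1.12 CPM in ΔTFR4 libraries (5.64-fold higher, adjusted p = 0.000109). Its relative S100B, a marker of melanocytes and of Schwann cells, the glia of peripheral nerves, had 50 counts over the ΔTFR5 libraries and 1 over the ΔTFR4 libraries, a ratio of 49.7 with a 95% counting interval of 8.52 to 2001 (adjusted p = 0.0105). The S100B call was lost without ΔTFR5 replicate 3 (0.0678), ΔTFR4 replicate 1 (0.0911) or ΔTFR4 replicate 2 (0.0951). SOX10, the factor that both lineages need, did not differ beyond its spread (-0.07 ± 0.11, adjusted p = 0.895), and the 11 tested melanocyte differentiation genes had no call and a median of -0.07, or -0.04 without ΔTFR5 replicate 3. With the 2 deletion groups alone 1 of them passed, lower in ΔTFR5, beside 3.13% of all genes. MITF, the melanocyte master factor, lay at 55.8, 62.0 and 62.7 CPM in ΔTFR5 libraries, wholly below 84.8, 80.6 and 75.5 CPM in ΔTFR4 libraries, and did not pass (-0.42 ± 0.23, adjusted p = 0.581, and 0.0129 with the 2 deletion groups alone).

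**Figure D2:**
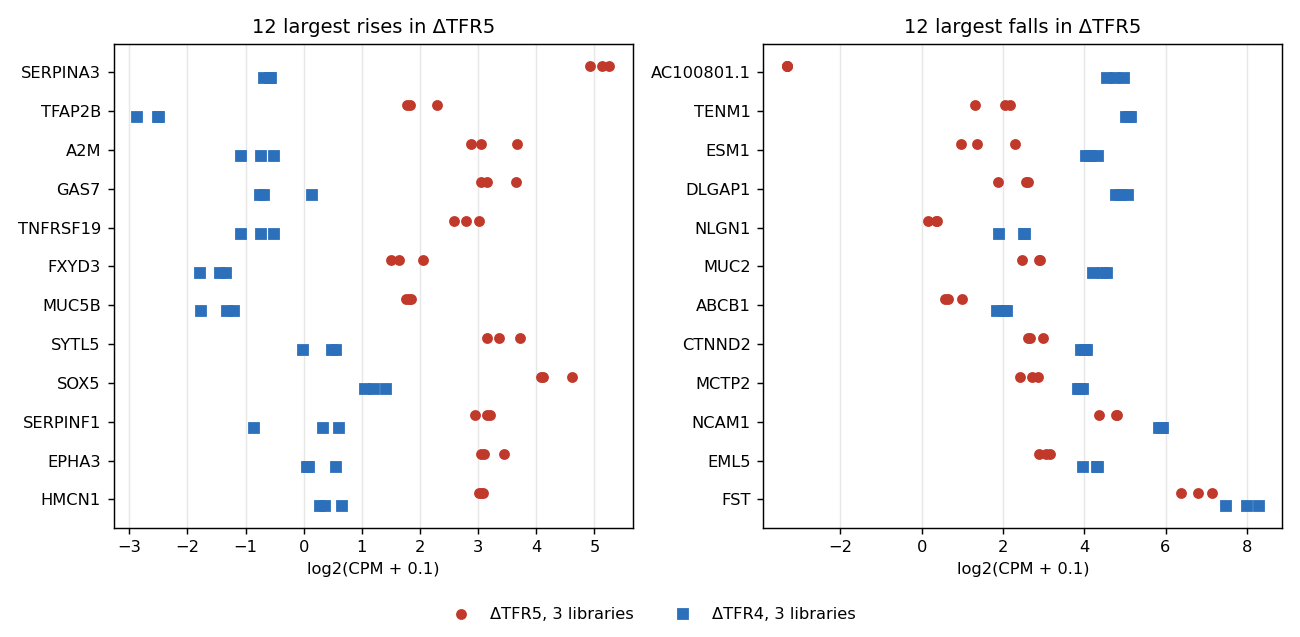
Each row is a gene, and the points give log2(CPM + 0.1) of the 3 ΔTFR5 libraries (red circles) and the 3 ΔTFR4 libraries (blue squares) for the 12 largest rises on the left and the 12 largest falls on the right. Groups do not overlap in any row, SERPINA3 lies at 30.1 to 38.1 CPM in ΔTFR5 against 0.521 to 0.579 CPM in ΔTFR4, and FST shows the narrowest gap among the falls.

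Among the falls, the largest was in a noncoding gene. AC100801.1 (ENSG00000253154, chr8:85833377-85951083, plus strand), a processed transcript in GENCODE 29, had 0 counts in each ΔTFR5 library, against 26.7, 31.5 and 23.6 CPM in ΔTFR4 libraries. It was thus at least 725-fold lower in ΔTFR5, from 2162 ΔTFR4 counts against a floor of 3 counts over the group (adjusted p = 2.95e-06). Among the libraries compared, only those of ΔTFR4 held counts, so the gene met the filter on low counts without ΔTFR5. Its mean log2 CPM over the 12 libraries of the fit was 2.78. The fall is relative to ΔTFR4, and whether ΔTFR5 lost the transcript or ΔTFR4 gained it was not tested. AC232323.2 overlaps it on the opposite strand.

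The other falls are also ordered by role after their values were seen. TENM1, a teneurin that links neurons across synapses (ENSG00000009694, chrX:124375903-124963817, minus strand), had 4.41, 4.06 and 2.37 CPM in ΔTFR5 libraries, against 32.5, 35.4 and 34.4 CPM in ΔTFR4 libraries, and was 9.42-fold lower (-3.24 ± 0.25, adjusted p = 1.8e-05). DLGAP1, a scaffold protein of the postsynaptic density, had 5.81, 6.06 and 3.58 CPM in ΔTFR5 libraries, against 29.8, 33.5 and 27.6 CPM in ΔTFR4 libraries (-2.56 ± 0.25, adjusted p = 0.000139). Replicate 3 was the lowest ΔTFR5 library for both, and the gap between the groups was far wider than the spread within either. NCAM1, the neural cell adhesion molecule, had 27.7, 27.6 and 20.4 CPM in ΔTFR5 libraries, against 57.0, 61.2 and 60.0 CPM in ΔTFR4 libraries (-1.236 ± 0.16, adjusted p = 0.0021). CTNND2, a δ-catenin of neuronal junctions, had 6.28, 7.77 and 6.02 CPM in ΔTFR5 libraries, against 15.1, 16.1 and 16.5 CPM in ΔTFR4 libraries (-1.25 ± 0.15, adjusted p = 0.00139). NLGN1, a neuroligin that joins synaptic membranes, had 1.19, 1.18 and 1.02 CPM in ΔTFR5 libraries, against 5.64, 5.70 and 3.64 CPM in ΔTFR4 libraries (-2.14 ± 0.37, adjusted p = 0.0178). Its call held without ΔTFR4 replicate 3 (0.033) and was lost without any of the other 5 libraries, at 0.083 to 0.125. Called genes with related roles lay on the other side. GRIN1, a subunit of the NMDA glutamate receptor, had 3.50, 4.88 and 2.64 CPM in ΔTFR5 libraries, against 0.0773, 0 and 0.0744 CPM in ΔTFR4 libraries (adjusted p = 0.0213). The adhesion genes CDH19, a cadherin, and LSAMP, a neuronal surface protein, rose by 2.95 ± 0.50 (adjusted p = 0.0183) and 3.30 ± 0.63 (adjusted p = 0.0406). GRIN1 and LSAMP passed in none of the 6 leave-one-out fits and CDH19 in 2.

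Secreted proteins and a drug pump were among the rest of the 12 largest falls. ESM1, a proteoglycan of endothelium also called endocan, had 2.47, 1.85 and 4.82 CPM in ΔTFR5 libraries, against 20.1, 16.3 and 17.9 CPM in ΔTFR4 libraries (-2.57 ± 0.33, adjusted p = 0.00185). MUC2, a gel-forming mucin of the gut, had 7.32, 7.38 and 5.46 CPM in ΔTFR5 libraries, against 18.6, 21.98 and 23.6 CPM in ΔTFR4 libraries (-1.67 ± 0.22, adjusted p = 0.00277), the opposite direction to MUC5B. ESM1 and MUC2 passed in all 6 leave-one-out fits. ABCB1, the efflux pump P-glycoprotein, had 1.47, 1.89 and 1.39 CPM in ΔTFR5 libraries, against 4.17, 4.00 and 3.53 CPM in ΔTFR4 libraries (-1.30 ± 0.21, adjusted p = 0.0131). It was the single called gene of 9 tested efflux transporters, beside 0.0959% of all genes called lower, and the list median was 0.02. The ABCB1 call was lost without ΔTFR5 replicate 1 or 3 or ΔTFR4 replicate 1 or 2, at 0.0822 to 0.1003. FST, follistatin, which binds and blocks activins, had 82.6, 111.9 and 141.2 CPM in ΔTFR5 libraries, against 314.5, 255.4 and 180.6 CPM in ΔTFR4 libraries (-1.16 ± 0.23, adjusted p = 0.0452). Its replicates spread widely in both groups: the call was lost with the 2 deletion groups alone (0.09) and without any library other than ΔTFR4 replicate 3, at 0.0597 to 0.265. FST was also the single call among 22 tested genes of dedifferentiated melanoma, beside 0.0959% of all genes called lower. The list median was -0.09, or -0.17 without ΔTFR5 replicate 3. With the 2 deletion groups alone 2 of the 22 passed higher and 4 lower, beside 3.19% and 3.13% of all genes. EML5, a microtubule-associated protein, and MCTP2, a calcium-binding membrane protein, fell by 1.18 ± 0.17 (adjusted p = 0.00671) and by 1.244 ± 0.23 (adjusted p = 0.037). The EML5 call was lost without ΔTFR5 replicate 1 or ΔTFR4 replicate 2 or 3, at 0.0527 to 0.0587, and the MCTP2 call without any of the 6, at 0.0959 to 0.236. Of the 24 largest changes, 14 overlap a gene on the opposite strand, from which reads cannot be told apart where the counting did not use strand.

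Because triplex-forming RNA pairs with purine runs, promoters of the called genes were read for them. A purine run was taken as 15 or more bases in a row that are all A or G, on either strand, within 250 bases before and 50 bases after the RefSeq start. RefSeq promoter windows were matched for 46 of the 67 genes that rose, 14 of the 18 that fell and 12406 of the 18763 tested. Such a run stood in 14 of the 46 (30.4%, 95% Wilson interval 19.1 to 44.8), in 3 of the 14 (21.4%, 7.57 to 47.6) and in 19.7% of the windows of all genes tested, and in 19.4% of all 27305 RefSeq windows. Both intervals hold the share of all genes at that length. For runs of 12 or more bases the shares were 65.2% of the rises (50.8 to 77.3), which lies above the 43.5% of all tested, and 35.7% of the falls (16.3 to 61.2). For runs of 20 or more bases they were 10.9% (4.73 to 23.0) and 14.3% (4.01 to 39.9), beside 6.26% of all tested. A CArG box, the site of serum response factor, stood in 2 of the 46 (4.35%, 1.201 to 14.5), 0 of the 14 (0%, up to 21.5) and 1.06% of all tested. All these shares are a description and not a test, without adjustment for the number of motifs and run lengths read. The letters TATAAA, on either strand and allowed to overlap other motifs, stood in 6.52%, 14.3% and 6.35%. The runs below are the ones of at least 15 bases found among those of the 24 largest changes that had a matched window. A2M, GAS7, MUC5B, SERPINF1, HMCN1, AC100801.1, NCAM1 and EML5 had none and were not read. Runs outside the windows were not read, and regions 4 and 5 of SLNCR were not matched to any run. Capitals mark the run, and each is on the gene's strand in RefSeq GRCh38.p14. FXYD3 and SOX5 rose, and TENM1 and CTNND2 fell.

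FXYD3, chr19:35117750-35117805, plus strand: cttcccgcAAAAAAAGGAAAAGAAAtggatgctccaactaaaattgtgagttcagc

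SOX5, chr12:24562492-24562557, minus strand: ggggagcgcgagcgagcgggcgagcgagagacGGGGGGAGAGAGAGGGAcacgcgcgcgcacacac

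TENM1, chrX:125204472-125204551, minus strand: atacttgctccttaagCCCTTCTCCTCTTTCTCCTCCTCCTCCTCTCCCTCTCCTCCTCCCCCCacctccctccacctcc

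CTNND2, chr5:11904502-11904581, minus strand: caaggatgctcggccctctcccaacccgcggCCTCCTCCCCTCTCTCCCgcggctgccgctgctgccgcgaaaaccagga

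In FXYD3 and SOX5 the purines, 17 bases each, are on the gene's own strand. In TENM1, with 48 bases, and CTNND2, with 18, the gene's strand carries the pyrimidines C and T, so the purines are on the other strand. The printed TENM1 and CTNND2 sequences lie outside the GENCODE 29 spans of those genes, upstream of them, as do the RefSeq starts they belong to. Those spans end at position 124963817 for TENM1, a wide gap, and at 11904043 for CTNND2, a narrow one. The FXYD3 sequence lies inside its gene's span, which starts at 35115879. The SOX5 sequence reaches across the end of its gene's span at 24562544, with the purine run inside. No triplex was measured in these libraries, and a run of letters is not a binding site.

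Gene groups of interest in melanoma were read as 31 lists, of which 25 had no called member. Their median differences lay between -0.88 and 0.60. DNA replication and S phase genes had the highest median at 0.60, with 30 tested, none called and 18 wholly higher in ΔTFR5, against the 13.1% of all genes. With the 2 deletion groups alone, 13 of the 30 passed higher and none lower, beside 3.19% and 3.13% of all genes. MCM4, a subunit of the helicase that opens replication origins, had 297.2, 240.7 and 317.1 CPM in ΔTFR5 libraries, against 159.6, 125.6 and 193.2 CPM in ΔTFR4 libraries (0.84 ± 0.32, adjusted p = 0.436, and 0.0178 with the 2 groups alone). MCM10, which helps fire the origins, had 29.7, 22.9 and 29.8 CPM in ΔTFR5 libraries, against 15.3, 16.4 and 17.0 CPM in ΔTFR4 libraries (0.76 ± 0.27, adjusted p = 0.386, and 0.00247 with the 2 groups alone). GINS1, of the same helicase complex, had 29.6, 22.5 and 38.4 CPM in ΔTFR5 libraries, against 16.8, 14.1 and 18.1 CPM in ΔTFR4 libraries (0.89 ± 0.26, adjusted p = 0.265, and 0.0229 with the 2 groups alone). ΔTFR5 replicate 3 was the highest of the 6 libraries in 27 of the 30 genes, beside 24.8% of all genes tested. Without it the median was 0.46, and 7 members passed higher with the 2 groups alone, beside 4.3% of all genes.

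Genes of G2 and mitosis followed that library more closely. All 30 had their highest level in ΔTFR5 replicate 3, the median was 0.31, and it was 0.10 without that library. CCNB1, the mitotic cyclin B1, had 117.7, 91.8 and 200.4 CPM in ΔTFR5 libraries, against 86.5, 69.3 and 85.2 CPM in ΔTFR4 libraries (0.77 ± 0.29, adjusted p = 0.422). ΔTFR5 replicates 1 and 2 stood only a little above the ΔTFR4 libraries. None of the 30 passed in either fit. Replication-dependent histones had 28 tested, no call and a median of -0.11.

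Immediate-early genes, which cells transcribe within minutes of a growth signal, had a median of -0.58. None of 30 passed, and 19 lay wholly lower in ΔTFR5, against 14.2% of all genes. With the 2 deletion groups alone 13 passed lower and none higher, beside 3.13% and 3.19% of all genes. JUN, an AP-1 subunit, had 76.8, 125.1 and 40.4 CPM in ΔTFR5 libraries, against 205.1, 220.2 and 194.1 CPM in ΔTFR4 libraries (-1.35 ± 0.57, adjusted p = 0.473). MYC, a growth-promoting transcription factor, had 115.2, 161.6 and 99.8 CPM in ΔTFR5 libraries, against 288.0, 276.4 and 248.8 CPM in ΔTFR4 libraries (-1.11 ± 0.39, adjusted p = 0.376, and 0.00502 with the 2 groups alone). MAFF, a small MAF factor, had 23.6, 35.2 and 25.7 CPM in ΔTFR5 libraries, against 80.6, 77.0 and 57.3 CPM in ΔTFR4 libraries (-1.35 ± 0.32, adjusted p = 0.133, and 0.00366 with the 2 groups alone). Within ΔTFR5, replicate 2 was the highest for each of the 3 genes. NR4A3, an orphan nuclear receptor, differed by -1.38 ± 0.51 (adjusted p = 0.413, and 0.00515 with the 2 groups alone), and BTG2, an antiproliferative gene, by -1.06 ± 0.29 (adjusted p = 0.220, and 0.0478 with the 2 groups alone). EGR1 and JUN did not pass with the 2 groups alone (0.458 and 0.189). ΔTFR5 replicate 3 was the lowest of the 6 in 24 of the 30 genes, beside 26.1% of all genes tested. The median without it was -0.41. Then 16 members passed lower and 1 higher with the 2 groups alone, beside 4.26% and 4.3% of all genes.

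**Figure D3:**
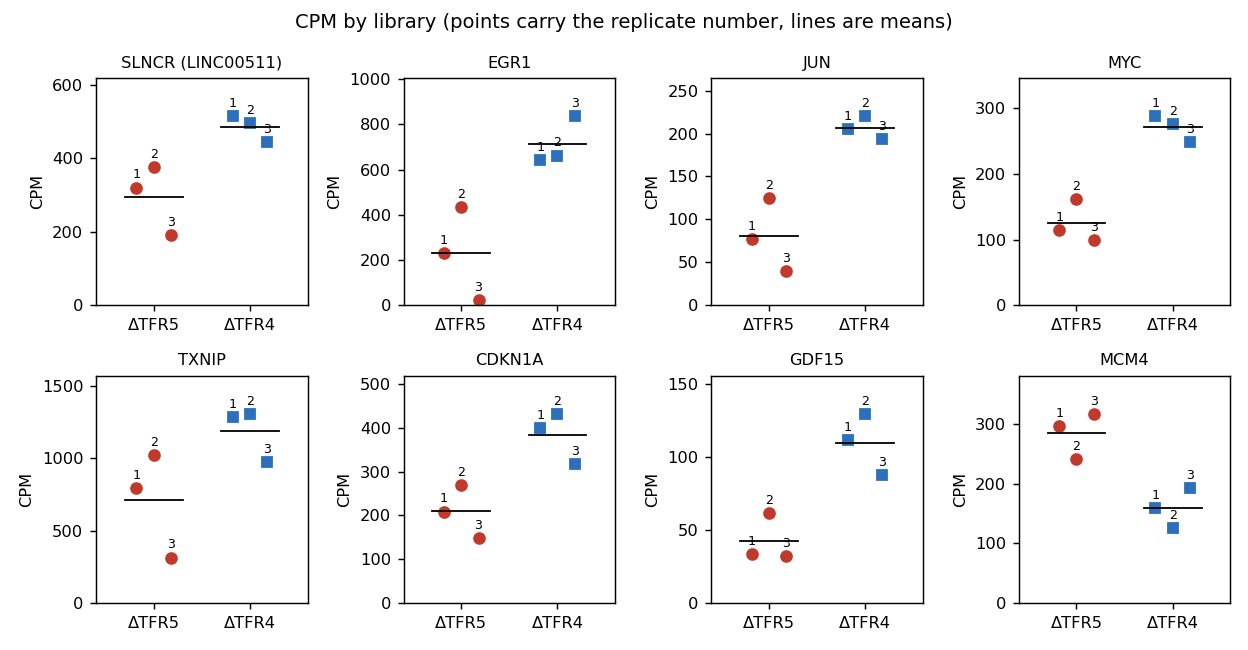
Each panel gives the CPM of 1 gene in the 3 ΔTFR5 libraries (red circles, left) and the 3 ΔTFR4 libraries (blue squares, right), with replicate numbers beside the points and lines at the group means. ΔTFR5 replicate 3 is the lowest point for SLNCR (191.6 CPM), EGR1 (23.4 CPM) and TXNIP (314.0 CPM), and the highest for MCM4 (317.1 CPM).

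Targets of p53, the tumour suppressor that answers DNA damage, had a median of -0.42. None of 27 tested passed, 20 lay wholly lower in ΔTFR5, against 14.2% of all genes, and 9 passed lower with the 2 deletion groups alone, against 3.13% of all genes, with none higher. GDF15, a stress-induced secreted factor, had 33.3, 61.4 and 32.0 CPM in ΔTFR5 libraries, against 111.9, 129.7 and 88.0 CPM in ΔTFR4 libraries (-1.38 ± 0.39, adjusted p = 0.246). TNFRSF10B, a death receptor, had 164.0, 209.6 and 164.6 CPM in ΔTFR5 libraries, against 288.7, 301.9 and 262.5 CPM in ΔTFR4 libraries (-0.66 ± 0.21, adjusted p = 0.303, and 0.00257 with the 2 groups alone). MDM2, which marks p53 for destruction, had 207.2, 218.5 and 224.2 CPM in ΔTFR5 libraries, against 267.8, 321.2 and 243.7 CPM in ΔTFR4 libraries (-0.36 ± 0.12, adjusted p = 0.368). The groups stood apart for these genes, by least for MDM2. ΔTFR5 replicate 3 was the lowest library in 18 of the 27, beside 26.1% of all genes tested. The median without it was -0.35, and 11 members then passed lower with the 2 groups alone, beside 4.26% of all genes.

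**Figure D4:**
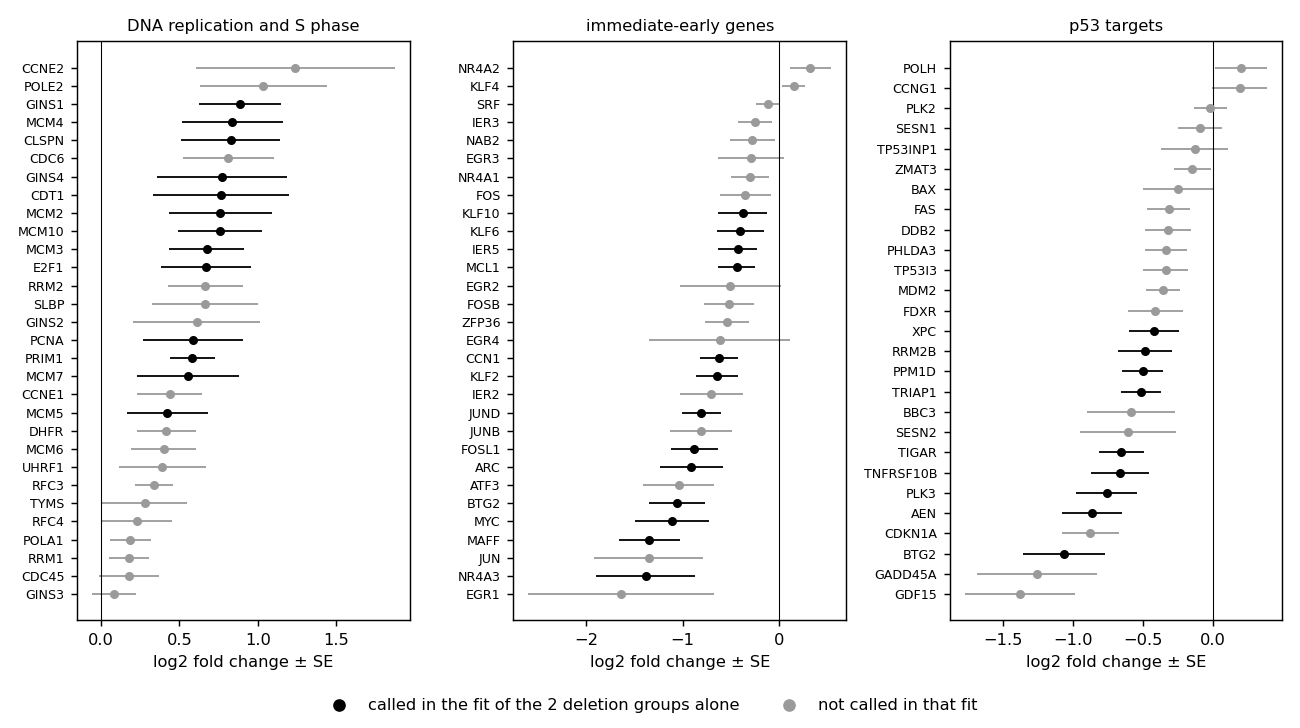
Each row is a tested member of the DNA replication, immediate-early or p53 target list, with its log2 fold change of ΔTFR5 over ΔTFR4 and standard error from the 12-library fit; black marks members that pass in the fit of the 2 deletion groups alone and grey those that do not. The 13 black replication genes lie above 0, and the 13 black immediate-early and 9 black p53 target genes lie below 0.

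Cytokines and NF-κB targets had 24 tested, no call and a median of -0.46. IL6, an inflammatory cytokine, had 1.99, 4.49 and 1.73 CPM in ΔTFR5 libraries, against 12.1, 14.8 and 8.85 CPM in ΔTFR4 libraries (-2.12 ± 0.56, adjusted p = 0.202, and 0.024 with the 2 groups alone). LIF, a cytokine of the IL6 family, had 87.6, 108.4 and 99.5 CPM in ΔTFR5 libraries, against 162.3, 172.2 and 153.6 CPM in ΔTFR4 libraries (-0.72 ± 0.26, adjusted p = 0.393, and 0.000476 with the 2 groups alone). CXCL1, a neutrophil chemokine, overlapped between the groups (-0.12 ± 0.17, adjusted p = 0.863). With the 2 groups alone 6 members passed lower and 1 higher, beside 3.13% and 3.19% of all genes. The median was -0.27 without ΔTFR5 replicate 3. With the 2 groups alone and without that library, 3 passed lower and 2 higher, beside 4.26% and 4.3% of all genes. The output and feedback genes of the MAPK pathway, which A375 cells drive through mutant BRAF, had 24 tested, no call and a median of -0.18. With the 2 groups alone 5 of these passed lower and 1 higher, beside 3.13% and 3.19% of all genes. FOSL1, an AP-1 factor downstream of ERK, had 619.8, 804.7 and 504.9 CPM in ΔTFR5 libraries, against 1211, 1242 and 1091 CPM in ΔTFR4 libraries (-0.88 ± 0.25, adjusted p = 0.244, and 0.00795 with the 2 groups alone).

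Matrix and antigen presentation genes gave 1 call each, both higher, from 23 and 20 tested, beside 0.357% of all genes. FN1, fibronectin, had 152.9, 144.9 and 176.7 CPM in ΔTFR5 libraries, against 85.7, 85.0 and 91.1 CPM in ΔTFR4 libraries (0.86 ± 0.14, adjusted p = 0.0108). Its call was lost without ΔTFR5 replicate 3 (0.0775) or ΔTFR4 replicate 1, 2 or 3 (0.0993, 0.0996 and 0.0572). The other 22 tested matrix genes did not pass, and the list median was 0.08, or 0.03 without ΔTFR5 replicate 3. With the 2 groups alone 3 matrix genes passed higher and 2 lower, beside 3.19% and 3.13% of all genes. When that library was also left out, 2 passed higher and 4 lower, beside 4.3% and 4.26%. HLA-DRA, the α chain of the class II molecule HLA-DR, had 9.66, 8.94 and 11.8 CPM in ΔTFR5 libraries, against 5.14, 3.36 and 4.13 CPM in ΔTFR4 libraries (1.27 ± 0.21, adjusted p = 0.0125). That call was lost without ΔTFR5 replicate 3 (0.0849) or ΔTFR4 replicate 2 (0.105) or 3 (0.0841). CIITA, the activator of class II genes, had 9.34, 8.27 and 11.4 CPM in ΔTFR5 libraries, against 4.60, 6.04 and 6.06 CPM in ΔTFR4 libraries (0.79 ± 0.22, adjusted p = 0.240, and 0.0134 with the 2 groups alone). HLA-B, a class I chain, lay the other way, at 32.4, 36.3 and 26.1 CPM in ΔTFR5 libraries and 48.6, 46.2 and 43.2 CPM in ΔTFR4 libraries (-0.54 ± 0.15, adjusted p = 0.246, and 0.0141 with the 2 groups alone). The 20 antigen presentation genes had a median of -0.15, or -0.07 without ΔTFR5 replicate 3. With the 2 groups alone 3 of them passed higher and 1 lower, beside 3.19% and 3.13% of all genes.

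**Figure D5:**
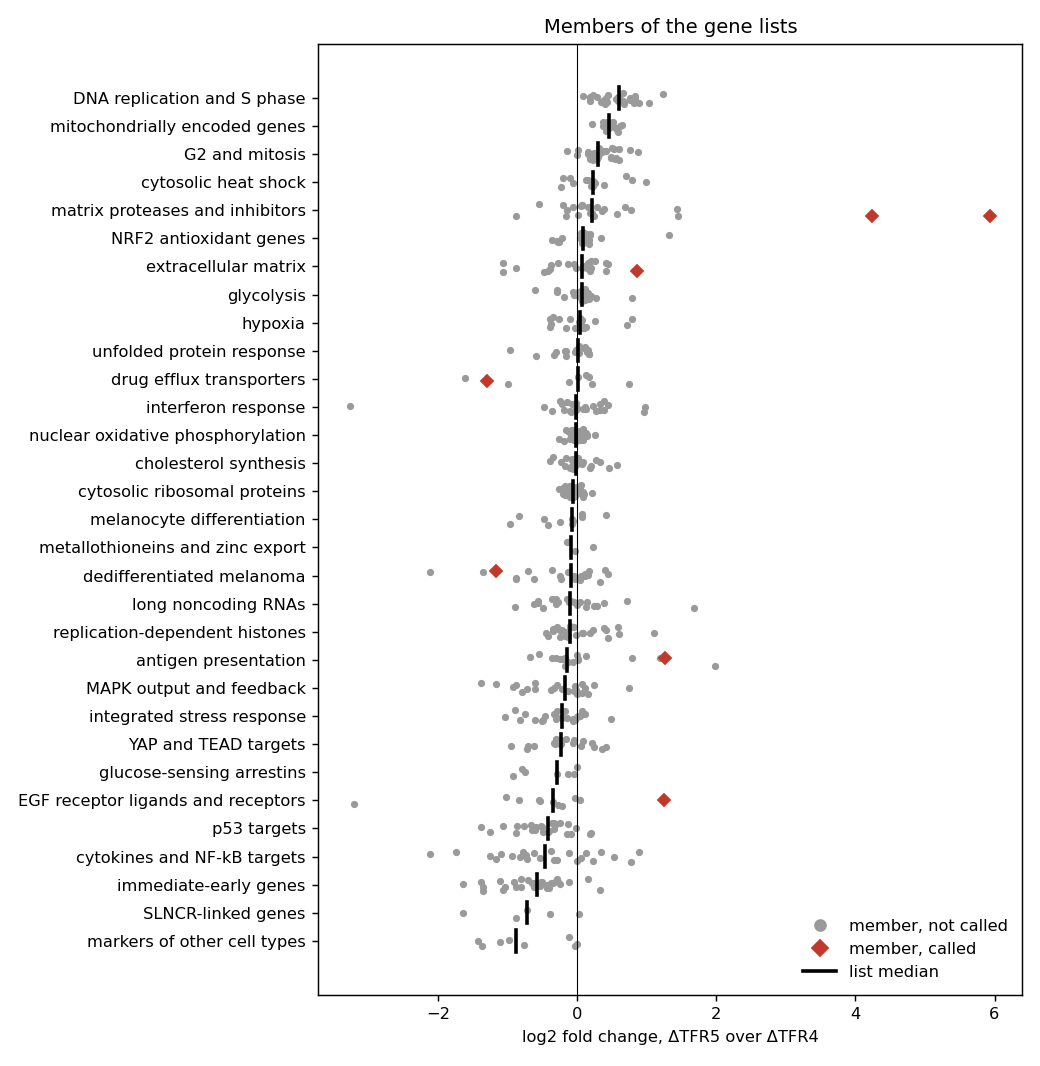
Each point is a tested member of 1 of the 31 gene lists, placed at its log2 fold change of ΔTFR5 over ΔTFR4, with grey circles for members not called, red diamonds for called members and a black bar at each list's median. DNA replication lies highest of the lists with a median of 0.60, immediate-early genes lie at -0.58, and the red diamonds belong to 6 lists.

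Heat shock, mitochondrial and other housekeeping groups had no call. HSPA8, the constitutive HSP70 chaperone, had 1088, 816.6 and 841.6 CPM in ΔTFR5 libraries, against 518.2, 403.7 and 462.2 CPM in ΔTFR4 libraries (0.99 ± 0.46, adjusted p = 0.521, and 0.000551 with the 2 groups alone). In the fit of the 2 groups alone 3 of 15 tested cytosolic heat shock genes passed higher, beside 3.19% of all genes. When ΔTFR5 replicate 3 was also left out 6 passed higher, beside 4.3%. The 13 mitochondrially encoded genes had a median of 0.46, and 11 lay wholly higher in ΔTFR5, against 13.1% of all genes, though none passed with the 2 groups alone. All mitochondrial genes together took 3.37, 2.76 and 2.91% of counts in ΔTFR5 libraries, against 1.54, 2.51 and 2.47% in ΔTFR4 libraries, with ΔTFR4 replicate 1 the lowest. Nuclear-encoded oxidative phosphorylation genes (29 tested, median -0.01), cytosolic ribosomal proteins (47 tested, median -0.06), cholesterol synthesis (23 tested, median -0.01) and interferon response (26 tested, median -0.01) stood close to 0. So did glycolysis (22 tested, median 0.07), hypoxia (19 tested, median 0.04), NRF2 antioxidant genes (20 tested, median 0.09) and the unfolded protein response (20 tested, median 0.02). Without ΔTFR5 replicate 3 the medians of these 8 lists lay between -0.02 and 0.05. With the 2 groups alone 2 unfolded protein response genes passed lower, as did 1 hypoxia gene, while 1 hypoxia and 1 glycolysis gene passed higher. Of all genes 3.13% passed lower and 3.19% higher in that fit. Long noncoding RNAs (22 tested, median -0.10) and metallothioneins with zinc exporters (4 tested, median -0.08) had no call, and with the 2 groups alone 1 long noncoding RNA passed higher and 3 lower.

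Stress response genes and YAP and TEAD targets had no call. Of 26 tested genes of the integrated stress response, which slows translation under amino acid or other stress, 13 lay wholly lower in ΔTFR5 and none wholly higher, against 14.2% and 13.1% of all genes, and the median was -0.22. With the 2 groups alone 3 passed lower (3.13% of all genes), and 10 when ΔTFR5 replicate 3 was also left out (4.26%), with none higher in either. Of 22 tested targets of YAP and TEAD, which carry growth signals from cell contact, 12 lay wholly lower and 3 wholly higher, with a median of -0.24. With the 2 groups alone 4 passed lower and 1 higher, and 7 lower and 1 higher when that library was also left out.

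The list of glucose-sensing arrestins had no call. TXNIP, an arrestin that senses glucose, had 795.3, 1022 and 314.0 CPM in ΔTFR5 libraries, against 1287, 1307 and 977.6 CPM in ΔTFR4 libraries, which overlapped through ΔTFR5 replicate 2 (-0.75 ± 0.70, adjusted p = 0.783). ΔTFR5 replicate 3 was the lowest library for all 7 arrestins and glucose sensors of its list, whose median was -0.29 and -0.13 without that library.

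Markers of other cell types were at low levels apart from CD68, a lysosomal protein that many cells make. Of 15 markers 8 were tested, none passed, and their median was -0.88. Their summed level was 207.0 to 251.1 CPM in ΔTFR5 libraries and 230.7 to 262.7 CPM in ΔTFR4 libraries, nearly all of it CD68. CD3E, of T cells, was at 0 in all 6 libraries. KRT5, a keratin of basal epithelium, lay at 2.74, 0.926 and 0.791 CPM in ΔTFR5 libraries, wholly below 3.13, 2.795 and 2.86 CPM in ΔTFR4 libraries. Its partner KRT14 lay at 1.71, 0.606 and 0.678 CPM in ΔTFR5 libraries, wholly below 2.67, 2.38 and 2.68 CPM in ΔTFR4 libraries (-1.37 ± 0.38, adjusted p = 0.233). With the 2 groups alone KRT14 was the single marker to pass (0.0348), lower in ΔTFR5, beside 3.13% of all genes. In bulk RNA, fewer cells of a kind and less RNA per cell cannot be told apart, for these and for all genes above.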

How the data were processed

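RNA was measured in 12 libraries of batch 2 (ΔTFR5, ΔTFR4, FL and empty vector, 3 each), which the submitters call biological replicates. The authors deposited an estimated count per gene, which they made with salmon, per the table's own name; of the values above 0, 64.11% were whole within 0.01. For salmon, no version, annotation or strand setting was given in the sources used here. STAR 2.7.3a, featureCounts of Subread 1.6.2, cutadapt 2.5, FastQC 0.11.5 and DESeq2 1.24.0 appear without roles in the submitters' processing notes, as do GRCh38 and GRCm38. The table of batch 1 was not used.

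Counts were rounded and tested with edgeR 4.0.16 (R 4.3.3): filterByExpr (minimum count 10, minimum total 15), TMM, glmQLFit with robust estimation, glmQLFTest and Benjamini-Hochberg adjustment, with all 12 libraries in the fit. FL and empty vector were not compared, but entered the filter, the scaling, the dispersion and the mean log2 CPM. A prior count of 2 entered only the log2 CPM behind the GC trend and the correlations between libraries. Fitted fold changes used edgeR's default prior count. Those of genes at or near 0 counts in a group depend on that default, so counts are given for those. The script was tested on simulated data. Alternatives used DESeq2 1.42.0, limma 3.58.1, other scalings, filters and libraries. Named genes are the SLNCR-linked genes, the 12 largest rises and falls among called genes whose mean log2 CPM reached 1, and the 6 largest immediate-early differences; others were chosen after their values were seen, and some are not reported here. Comparison, members and lists were chosen with earlier results of these data known. No 2 libraries of a group were alike within sampling noise (chi-square per gene 12.7 to 41.8). Intervals and floors cover counting error only. Gene positions are from GENCODE 29, promoters from RefSeq GRCh38.p14.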

Additional observations from a re-analysis of the deposited data

How the results depend on the processing

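No called gene among the 33 named genes other than SLNCR changed direction in any of the 18 alternatives, and SLNCR stayed lower in ΔTFR5 throughout. The count of calls was 85 (67 higher, 18 lower) in the 12-library fit, 218 with DESeq2 (139 higher, 79 lower), 141 with no filter on low counts (102 higher, 39 lower), 1106 with the 2 deletion groups alone (558 higher, 548 lower) and 3394 with limma voom and quality weights (1662 higher, 1732 lower). Chosen after seeing the data, the fit without the FL group gave 1656 (843 higher, 813 lower), and the 2 deletion groups alone without ΔTFR5 replicate 3 gave 1541 (774 higher, 767 lower). Higher calls were 78.82% of the 85 and 50.45% of the 1106. Leaving out 1 library gave 39 to 62 calls, 30 to 50 higher and 8 to 17 lower. SLNCR differed by -0.61 with voom (adjusted p = 0.0157) and by -0.47 in the 2 groups without ΔTFR5 replicate 3 (adjusted p = 0.0014), and passed in both; the causes were not tested.

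Same-numbered libraries did not deviate together (correlations -0.017, -0.034 and -0.045). With the replicate block 85 genes were called, 63 higher and 22 lower, of which 76 were among the original 85; FST was lost (adjusted p = 0.0757), and CDKN1A (0.0318) and BTG2 (0.0359) passed; with block and GC trend removed 35 were lower. Shares of promoters with a purine run were 65.22% (rises; interval 50.77 to 77.32), 35.71% (falls) and 43.47% (all tested) at 12 bases, and 10.87%, 14.29% and 6.263% at 20 bases. Genes under 1 CPM rest on few counts per library, which limits their folds.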

Other observations

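Other called genes, chosen after their values were seen, include receptors and channels of nerve cells. TRPM8, the cold-sensing channel, had 1.87, 1.78 and 1.73 CPM in ΔTFR5 libraries, against 0.155, 0.113 and 0.112 CPM in ΔTFR4 libraries (3.78 ± 0.37, edgeR adjusted p = 0.000139). OPRD1, the δ-opioid receptor, had 2.86, 2.64 and 2.56 CPM in ΔTFR5 libraries, against 0.116, 0.227 and 0.632 CPM in ΔTFR4 libraries (3.02 ± 0.42, adjusted p = 0.00377). Both were low in every ΔTFR4 library and passed in all 6 leave-one-out fits.

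Some called genes had higher levels in both groups. SLC26A2, a sulfate transporter, had 158.3, 153.9 and 223.0 CPM in ΔTFR5 libraries, against 73.8, 76.3 and 75.1 CPM in ΔTFR4 libraries (1.25 ± 0.15, adjusted p = 0.00107). RPS6KA2, a kinase downstream of ERK, had 60.5, 59.8 and 56.9 CPM in ΔTFR5 libraries, against 29.7, 29.7 and 29.4 CPM in ΔTFR4 libraries (1.00 ± 0.13, adjusted p = 0.00277). SDC3, a syndecan of the cell surface, had 27.1, 23.6 and 25.4 CPM in ΔTFR5 libraries, against 10.4, 10.6 and 11.9 CPM in ΔTFR4 libraries (1.21 ± 0.16, adjusted p = 0.00277). These 3 passed with any of the 6 libraries left out. DKK1, a secreted inhibitor of Wnt signalling, had 66.4, 60.1 and 64.1 CPM in ΔTFR5 libraries, against 101.0, 101.0 and 93.1 CPM in ΔTFR4 libraries, a narrow spread on both sides (-0.63 ± 0.10, adjusted p = 0.0108). Its call was lost without ΔTFR5 replicate 2 (0.0687) or 3 (0.0515), or ΔTFR4 replicate 1 (0.0993) or 2 (0.0908).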
